A study of Mus musculus with 9 samples.

Results

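Mpzl2 and its paralogs Mpzl1 and Mpzl3 are 3 related genes for adhesion proteins, and their rows were taken by gene symbol from the deposited expression tables. RNA of the membranous labyrinth, the soft tissue inside the bony cochlea of the mouse, was sequenced at postnatal day 28 in 9 libraries of 3 groups. The treated group, called Treated here, held homozygous hMPZL2Q74X/Q74X mice that had been given AAV-ie-ABE8eWQ-SpRY:sgRNA3, an adeno-associated virus that carries an adenine base editor with its guide; it was injected on postnatal day 2 by way of the round window. The Homozygous group had the same 2 alleles and no vector, and the WT group carried wild-type Mpzl2. The humanized allele bears the nonsense variant c.220C>T at codon 74. Each group had 3 libraries named as biological replicates, the genotype field counted upward from library to library, and groups were therefore read from the titles. Strain, vector dose, which part of the mouse gene was replaced by human sequence, and whether each library came from separate animals are not given in the sources used here, so p-values measure the spread between these libraries only.

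A first table held 1410 gene symbols in Homozygous and WT libraries, and a second held 25579 in Treated and Homozygous libraries. Of the 3 members, 2 (Mpzl2 and Mpzl3) had a row in the first table and 3 had one in the second. All of these passed the filter on low values, 1 TPM or more in at least 3 libraries, where TPM is the share of a library's transcripts, corrected for transcript length and set to a fixed total.

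Proteins of this family span the membrane and carry an extracellular immunoglobulin-like domain by which cells adhere. MPZL2 was first described as an adhesion molecule of epithelia and thymus, and recessive variants of human MPZL2 cause hearing loss. MPZL1 carries intracellular tyrosine motifs that bind the phosphatase SHP2. A mutation of Mpzl3 underlies the rough coat mouse, which has abnormal skin and hair.

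The coding sequence at the position of the modelled variant is shown for the 3 mouse genes, because codon 74 of mouse Mpzl2 is the codon before the last of the second coding exon, and that exon has 167 coding bases in all 3 genes. Each line gives the last 60 bases of that exon, 5′ to 3′, and capitals mark its codon before the last, which in Mpzl2 is the CAG of codon 74. The sequences are those of the mouse reference transcripts in GENCODE release M21 on GRCm38, with Mpzl1 on the minus strand of chromosome 1 and Mpzl2 and Mpzl3 on the plus strand of chromosome 9, and none of them is the humanized allele.
Mpzl2: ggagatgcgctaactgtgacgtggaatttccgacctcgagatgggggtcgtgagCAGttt
Mpzl1: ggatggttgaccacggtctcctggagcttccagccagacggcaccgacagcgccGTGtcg
Mpzl3: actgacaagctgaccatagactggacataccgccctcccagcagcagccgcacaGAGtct
In this window Mpzl2 shared 25 of 60 bases with Mpzl1 (41.7%) and 28 of 60 with Mpzl3 (46.7%), and Mpzl1 and Mpzl3 shared 27 of 60 (45.0%). The glutamine codon of Mpzl2 stood opposite a GTG in Mpzl1, at codon 85, and a GAG in Mpzl3, at codon 80.

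Library totals in the second table were 995747 to 996703 TPM, and sequencing depth cannot be read from TPM. The tested genes of the first table had absolute log2 fold changes of 0.243 or more, a size below which 26.1% of the tested genes of the second table lay, so the first table is treated as a list chosen on these libraries, in which adjusted p-values are too small. Treated libraries 1 and 2 were nearly one and the same: the spread of their log2 ratio over genes at 1 to 5 TPM (scaled median absolute deviation) was 0.0695, against 1.83 for Treated libraries 1 and 3 and 0.869 to 1.09 for pairs of Homozygous libraries. That is less than the noise seen in any other pair, so their mean was used as 1 sample and Treated means have n = 2. Treated libraries 1 and 2 also carried 913 and 887 TPM of the 6 forebrain neuron markers, with 0 of the 6 at 0, against 23.6 TPM in Treated library 3, with Neurod6, Neurod2 and Tbr1 at 0, and 9.96 to 25.9 TPM in the Homozygous libraries, with 2 or 3 of the 6 at 0. Mitochondrially encoded genes held 2.17%, 2.22% and 6.16% of TPM in Treated libraries and 10.7% to 13.6% in Homozygous libraries.

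Mpzl2 RNA fell in Homozygous cochlea relative to WT. It stood at 16.7, 23.2 and 12.5 TPM in Homozygous libraries and at 33.6, 43.9 and 49.0 TPM in WT libraries. The highest Homozygous library lay below the lowest WT library, a pattern shown in that direction by 45.6% of the tested genes of this table and in either direction by 77.1%. The Homozygous mean was 41.5% of the WT mean, and the log2 fold change on the log2(TPM + 1) scale, used for all fold changes here, was -1.25 (SE 0.24, 95% interval -1.80 to -0.69; limma adjusted p = 0.0139). This table called 51.3% of its tested genes, 33.5% as lower, and Mpzl2 ranked 73 of 1348 by p, so the call by itself does not set the gene apart from its table. With WT library 3 left out the log2 fold change was -1.13 (limma adjusted p = 0.0544). Reads of the human part of the allele may not have been counted to the mouse gene, so the level that remains is not a measure of all transcripts of the allele. In bulk tissue, fewer cells that express a gene and less RNA per cell cannot be told apart.

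**Figure D1:**
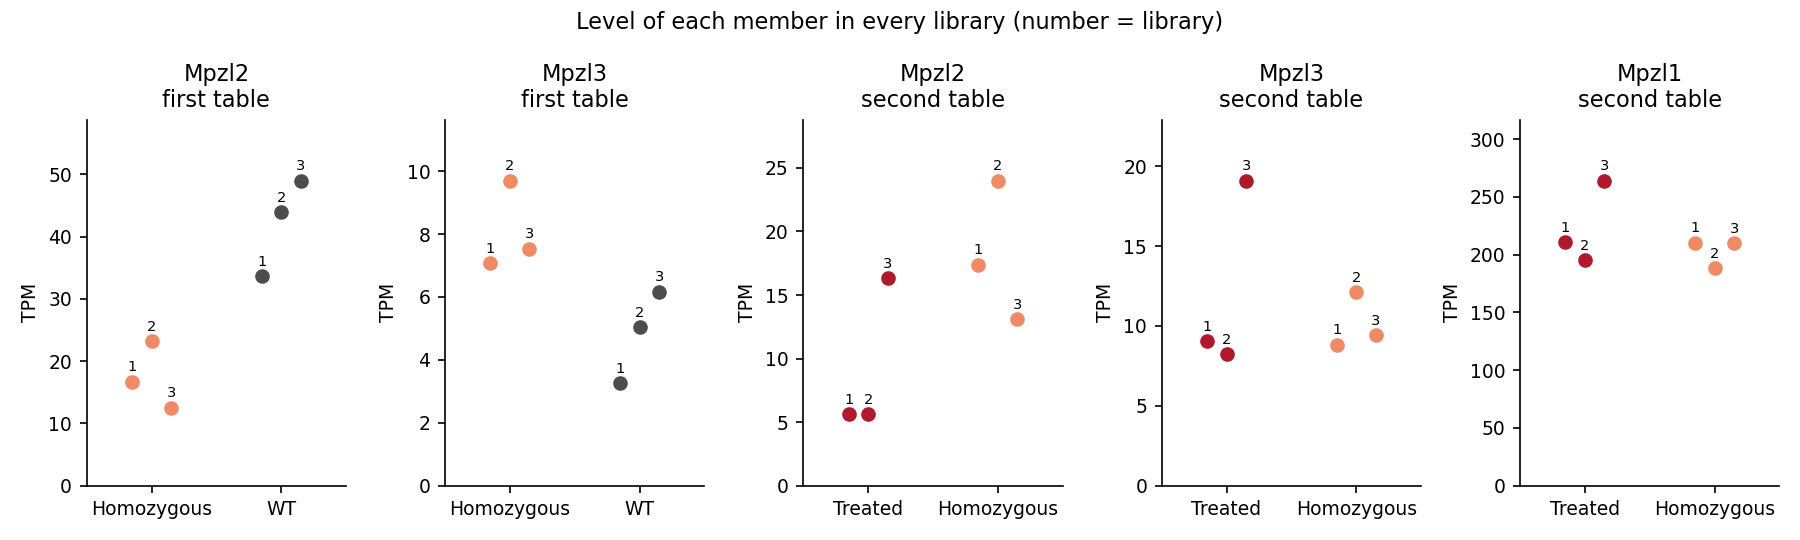
TPM of each member in every library, 1 point per library with its number, for Homozygous and WT libraries in the first table and Treated and Homozygous libraries in the second. Homozygous and WT libraries do not overlap for Mpzl2 or Mpzl3, and Treated library 3 lies above Treated libraries 1 and 2 for all 3 genes.

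Mpzl3, which lies next to Mpzl2 on the chromosome, differed in the other direction without passing the test. It stood at 7.07, 9.70 and 7.53 TPM in Homozygous libraries and at 3.26, 5.03 and 6.17 TPM in WT libraries. The groups did not overlap, and 31.5% of the tested genes of this table were higher without overlap. The log2 fold change was 0.67 (95% interval 0.09 to 1.25; limma adjusted p = 0.0524), and with median-of-ratios scaling it was 0.79 (limma adjusted p = 0.0364).

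The ratio of the 2 neighbours within a library does not depend on how libraries are scaled to each other. Mpzl2 was 2.37, 2.40 and 1.66 times as abundant as Mpzl3 in Homozygous libraries and 10.3, 8.72 and 7.94 times as abundant in WT libraries. Every Homozygous ratio was thus well below every WT ratio. This follows from the 2 genes, which each differed without overlap and in opposite directions. Both belong to a table treated as chosen on these libraries, with 77.1% of its tested genes without overlap, so the ratio adds no separate evidence. In Homozygous libraries, reads of the human part of the allele may also be missing from Mpzl2. With 1 TPM added to each gene, the log2 ratio averaged 0.99 ± 0.29 in Homozygous and 2.91 ± 0.11 in WT libraries (SD, n = 3 each), a difference of -1.91. The added 1 TPM makes this value depend somewhat on scaling. By an exact permutation test on both sides, p was 0.1 for this ratio, which is the smallest that 3 against 3 libraries allow, and 0.2 after adjustment over the 8 exact tests made.

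**Figure D2:**
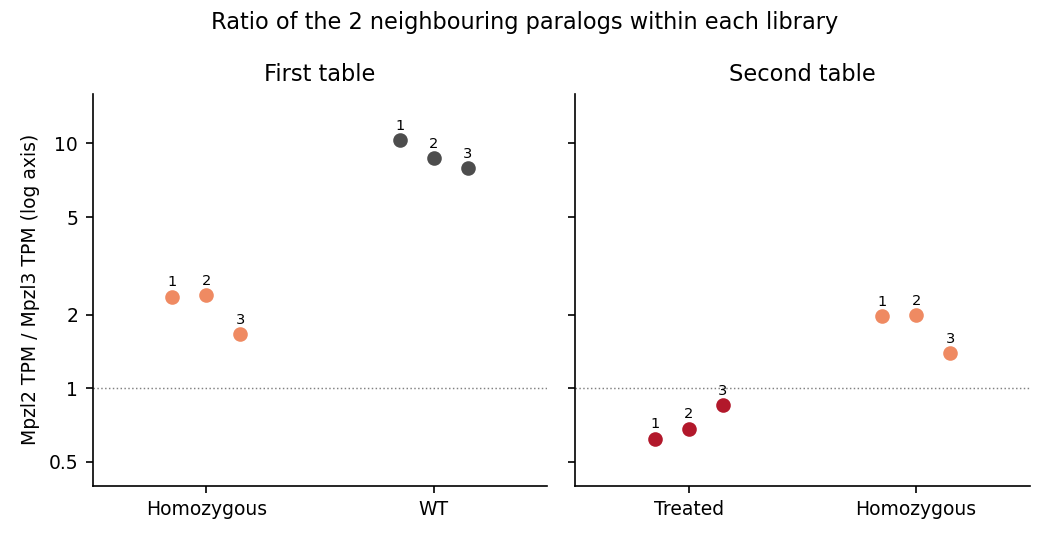
Mpzl2 TPM divided by Mpzl3 TPM in each library, on a log axis, with the library number beside each point and a dotted line at equal abundance. Homozygous ratios lie between 1.66 and 2.40 in the first table, below WT, and Treated ratios lie between 0.623 and 0.852 in the second, below Homozygous.

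Homozygous libraries appear in both tables, with values that differ. Their Mpzl2 level in the first table was 0.951 to 0.968 times that in the second, and their Mpzl3 level 0.798 to 0.803 times, where the median of shared genes was 0.855 to 0.860. The factor was therefore steady for both genes over the 3 libraries but not the same for them, and no level is compared across tables.

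The next gene after Mpzl3 on chromosome 9, Jaml, which encodes an adhesion molecule of leukocytes, had a row in the first table as well. It rose to 29.8, 29.3 and 22.2 TPM in Homozygous libraries, against 19.7, 12.8 and 17.5 TPM in WT libraries, with no overlap (log2 fold change 0.68, limma adjusted p = 0.0405). This table called 17.9% of its tested genes as higher. When libraries were left out 1 at a time, Jaml kept its call in 1 of 6 fits. Its values were unlike those of the Mpzl genes in another respect: in the 3 Homozygous libraries the first table gave 1.50, 0.962 and 2.85 times the second, a spread wider than that of 99.7% of 1032 shared genes. Of the 8 other protein-coding genes within 100 kb of Mpzl2 and Mpzl3, Jaml was the 1 in the first table, and of the 30 protein-coding genes nearest to Mpzl2 in order, 15 on each side, 3 were: Phldb1, Mpzl3 and Jaml. For comparison, 7.58% of the tested genes of the second table had a row in the first.

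The noncoding gene Gm10684, chosen after its values were seen, overlaps the end of Jaml on the other strand in GENCODE M21. It was at 6.31, 2.93 and 6.08 TPM in Homozygous libraries and at 1.63, 2.84 and 0.752 TPM in WT libraries (log2 fold change 1.18, limma adjusted p = 0.0405), and 4 of 6 leave-one-out fits did not call it. Whether the quantification used the strand is not stated, and without it reads of Gm10684 and of genes on the other strand cannot be told apart.

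**Figure D3:**
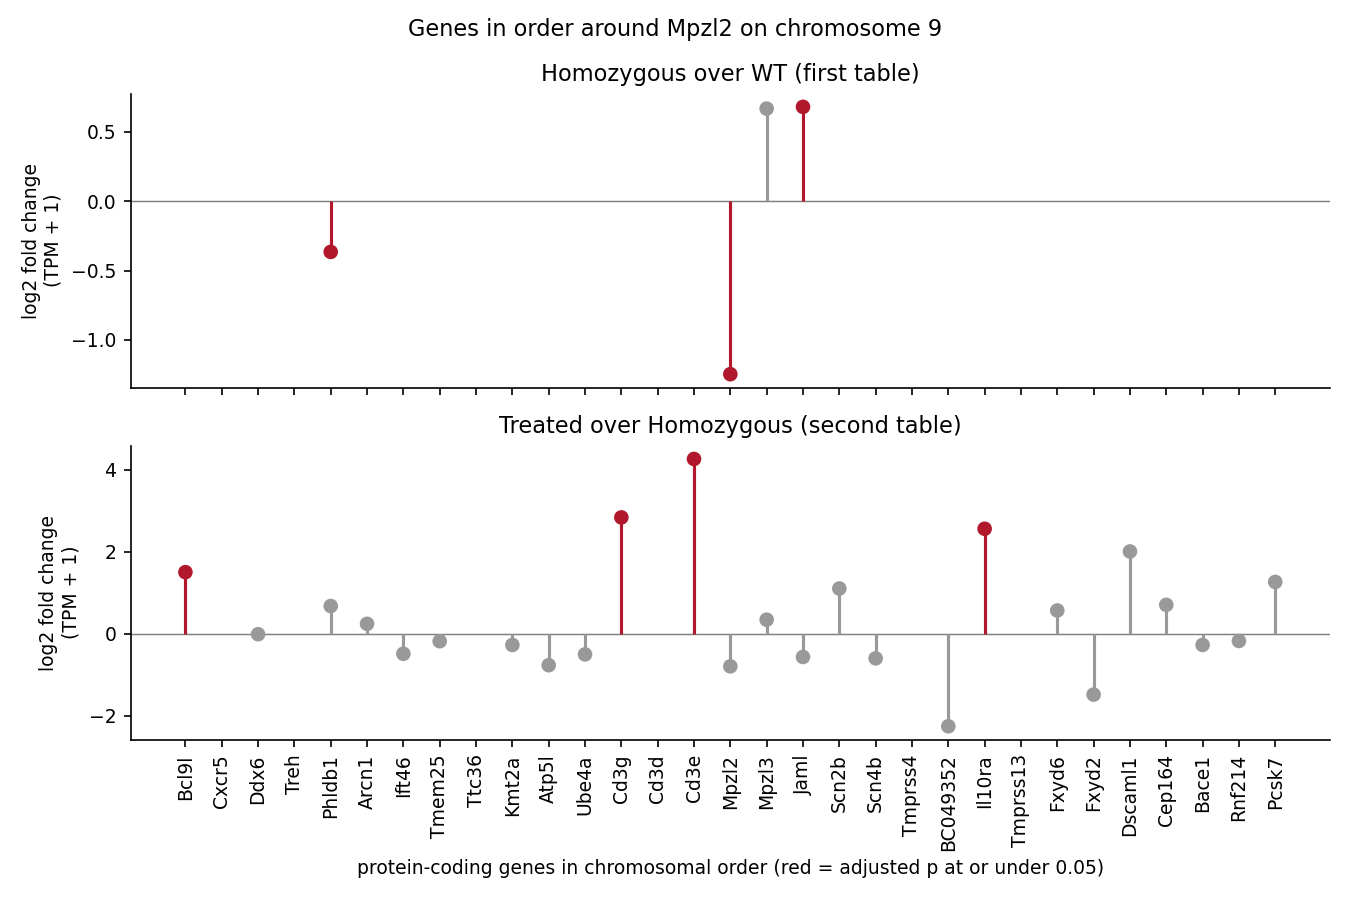
Log2 fold change of protein-coding genes in chromosomal order around Mpzl2, for Homozygous over WT (upper panel) and Treated over Homozygous (lower panel), red where the limma adjusted p was 0.05 or less and empty where a gene was not tested. Mpzl2 at -1.25 and Mpzl3 and Jaml at 0.67 and 0.68 stand side by side in the upper panel.

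Markers of Schwann cells, which wrap the axons of the cochlear nerve, were mostly lower in the same libraries. Of 5 tested markers 4 fell and 0 rose, where 33.5% of all tested genes of this table were called lower, with a median log2 fold change of -0.90 against -0.36 over all tested genes of the table. Prx and Ncmap, which encode proteins of the myelin sheath, had log2 fold changes of -0.996 and -0.90, and Ncmap did not pass in 3 of 6 leave-one-out fits.

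Epithelial genes in the first table had values above 0 that did not pass. The first table held 2 of the 16 epithelial markers, the cadherin gene Cdh1 and the tight junction gene Ocln, and 0 passed limma. Their log2 fold changes were 0.32 and 0.37, and 1 of them was under 0.05 before adjustment, as were 75.7% of the tested genes of this table. Of 3 tested markers of strial basal cells, cells that seal the vascular epithelium of the cochlear wall, 1 rose and 0 fell: Sox8, a transcription factor gene, with a log2 fold change of 0.60. Of 4 tested supporting cell markers 1 fell and 0 rose, the tectorial membrane gene Tectb, with a log2 fold change of -1.56 and groups that overlapped. Strial marginal cell markers had 2 of 3 higher, the endocytic receptor gene Lrp2 (log2 fold change 0.94) and Atp13a5 (0.79). Over all genes tested there, 17.9% were called higher and 33.5% lower, and the counts of 1 in 3 basal and 1 in 4 supporting cell markers are near those shares. Of these, Tectb and Lrp2 did not pass in 4 of 6 leave-one-out fits, and Sox8 and Atp13a5 in 5.

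The genes whose pattern over the 6 libraries was closest to that of Mpzl2 in the first table were Nckap5l, Dmp1, Ighm, Ccn4 and Kazald1. Closeness was the root mean square difference of centred log2(TPM + 1), which was 0.185 for Nckap5l and 0.229 for Kazald1 among 1339 genes compared. Dmp1, a gene of osteocytes, stood at 47.3, 73.0 and 34.4 TPM in Homozygous libraries and at 127, 115 and 127 TPM in WT libraries. As for Mpzl2, Homozygous library 2 was the highest and library 3 the lowest of the Homozygous libraries. Ighm is an immunoglobulin gene and Ccn4 encodes a secreted matrix protein. Bone markers were lower in the same libraries as Mpzl2: 3 of 4 tested fell and 0 rose, in a table with 33.5% of its tested genes called lower. Among them were Col1a2 (log2 fold change -0.98) and Dmp1 (-1.31). The summed level of those in the table was 358 to 649 TPM in Homozygous and 895 to 1081 TPM in WT libraries. Their part in the Mpzl2 result was not tested.

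Other genes connected to the family by function were few in the first table. Of the 14 listed adhesion proteins of the JAM and CTX type, immunoglobulin-like proteins of cell contacts, 2 were tested, with Jaml higher and Clmp lower (log2 fold change -0.46, limma adjusted p = 0.0453). Clmp did not pass with median-of-ratios scaling (limma adjusted p = 0.099). Of the 10 listed partners of MPZL1 signalling, 2 were tested, and Fyn, a Src family kinase gene, fell (log2 fold change -0.53, limma adjusted p = 0.0499), with 1 library of overlap between groups and no call under that scaling (limma adjusted p = 0.103). Clmp and Fyn each failed to pass in 5 of 6 leave-one-out fits. None of the 19 listed factors of nonsense-mediated decay, the pathway that degrades transcripts with premature stop codons, had a row in that table.

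Base editor treatment was compared with the untreated mutant in the second table. There Mpzl1 was by far the most abundant of the 3 genes. It held 93.5%, 93.4% and 88.2% of the summed TPM of the 3 in Treated libraries and 88.9%, 83.9% and 90.3% in Homozygous libraries. Mpzl1 was at or above the 96.8th percentile of all genes in each of these libraries. Mpzl2 lay at the 46.8th, 47.0th and 63.9th percentile in Treated libraries and at the 67.6th, 71.9th and 62.7th in Homozygous libraries. Both groups carry the humanized allele, and reads of its human part may not have been counted to Mpzl2. The share and percentile of Mpzl2 may therefore be too low.

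Mpzl2 did not pass the test between Treated and Homozygous cochlea, and its mean was the lower one in Treated. It was at 5.64, 5.62 and 16.3 TPM in Treated libraries and at 17.4, 24.0 and 13.1 TPM in Homozygous libraries. Treated libraries 1 and 2 lay below every Homozygous library, and Treated library 3 lay inside the Homozygous range. The difference did not pass (log2 fold change -0.80, 95% interval -1.96 to 0.36; limma adjusted p = 0.335), where 4.41% of 17102 tested genes were called (3.44% higher and 0.965% lower) and 26.7% reached 0.05 without adjustment. With Treated library 3 alone against the Homozygous libraries it was -0.11 (limma adjusted p = 0.874), and without Treated library 3 it was -1.49 (limma adjusted p = 0.0622); in both the lone Treated sample is assumed to vary like the other group. The forebrain markers given above are high in the same libraries, Treated 1 and 2, in which Mpzl2 is low, and their part in this was not tested. These levels do not measure editing, because a corrected base changes a codon and the table gives transcript abundance.

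Mpzl1 was at 210.5, 195 and 264 TPM in Treated libraries and at 210.1, 188 and 209.6 TPM in Homozygous libraries, and the groups overlapped. Its log2 fold change was 0.19 (95% interval -0.25 to 0.64; limma adjusted p = 0.541), close to the median of 0.20 over all tested genes. Under median-of-ratios scaling the value for Mpzl1 was -0.01 and the median of all genes 0.02, so its sign depended on the scaling. It averaged 202 ± 12.8 TPM in Homozygous libraries (SD, n = 3), and on the log2(TPM + 1) scale its SD there was 0.0924, against 0.412 for Mpzl2 and 0.218 for Mpzl3.

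Mpzl3 was at 9.06, 8.22 and 19.1 TPM in Treated libraries and at 8.82, 12.1 and 9.43 TPM in Homozygous libraries. Treated library 3 was the highest of the 6, and the other Treated libraries lay near the Homozygous ones. The log2 fold change was 0.34 (95% interval -0.64 to 1.31; limma adjusted p = 0.631), and without Treated library 3 it was -0.19.

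Within libraries, the order of Mpzl2 and Mpzl3, as counted to the mouse genes, was not the same in the groups. Reads of the human part of the allele may be missing from Mpzl2 in both groups, so its ratios to other genes may be too low. Mpzl2 had 0.623, 0.684 and 0.852 times the level of Mpzl3 in Treated libraries and 1.97, 1.99 and 1.39 times its level in Homozygous libraries. Treated library 3, which lay inside the Homozygous range for Mpzl2 itself, thus stood with the other Treated libraries for the ratio. There the low ratio came with a high Mpzl3 (19.1 TPM), and in Treated libraries 1 and 2 with a low Mpzl2 (5.64 and 5.62 TPM). Groups did not overlap in 42.7% of single tested genes, and ratios of gene pairs outside the family were not examined. With 1 TPM added to each gene, the log2 ratio averaged -0.38 ± 0.23 in Treated (SD, n = 2) and 0.76 ± 0.28 in Homozygous libraries (SD, n = 3), a difference of -1.14. By the same exact permutation test, p was 0.1, the smallest that 2 against 3 samples allow (0.2 adjusted over the 8 exact tests). The ratio of Mpzl2 to Mpzl1 was 0.0268, 0.0288 and 0.0617 in Treated libraries and 0.0827, 0.128 and 0.0627 in Homozygous libraries, and Treated library 3 lay just below Homozygous library 3. The difference of that log2 ratio, also with 1 TPM added to each gene, was -0.996 (exact permutation test, p = 0.2, 0.32 adjusted over the 8 exact tests).

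In order of counted level, every Treated library had Mpzl1 above Mpzl3 and Mpzl3 above Mpzl2. With the human part of the allele possibly uncounted, the true place of Mpzl2 in this order is not known. The means of 13.9 ± 7.42 TPM for Mpzl3 and 11 ± 7.55 TPM for Mpzl2 (SD, n = 2) differed by less than the spread between libraries. In that spread Treated library 3 was the higher sample for both genes. Homozygous libraries had Mpzl1, Mpzl2 and Mpzl3 in that order, with 18.2 ± 5.48 TPM for Mpzl2 and 10.1 ± 1.73 TPM for Mpzl3 (SD, n = 3) and no overlap between neighbours in it.

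Epithelial genes as a group lay above 0 in the same comparison. Of 16 tested epithelial markers 2 rose and 0 fell, against 3.44% of all tested genes called higher, 16 had a positive log2 fold change, and the median was 1.24 against 0.20 over all tested genes. The 2 that passed encode tight junction proteins, Cldn3 (log2 fold change 2.49, limma adjusted p = 0.00608) and Tjp3 (2.11, limma adjusted p = 0.0223). Tjp3 did not pass in 3 of 6 leave-one-out fits. The summed level of the 16 markers was 721, 719 and 1199.8 TPM in Treated libraries and 380.1, 564 and 391 TPM in Homozygous libraries. Rab25, Esrp2 and Grhl2, named after their values were seen, were lowest in Treated libraries 1 and 2, as Mpzl2 was. Rab25 was at 2.86, 3.02 and 12.5 TPM in Treated libraries and at 6.47, 9.23 and 3.42 TPM in Homozygous libraries. Treated library 3 lay above every Homozygous library for these genes. No other marker of the list was lowest in Treated libraries 1 and 2.

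Supporting cell, strial and hair cell markers are given list by list, and differences between lists were not tested. Of 10 supporting cell markers 2 rose and 0 fell, where 3.44% of all tested genes were called higher. They were Lfng, a modifier of Notch signalling (log2 fold change 1.68), and Otog, which encodes a protein of the tectorial membrane (2.05). Both calls were lost without some Homozygous libraries. The median of this list was 0.34, with 6 markers above 0 and 4 below. Those below, named after their values were seen, were Prox1 (-1.105), Gjb6 (-0.53), Sox2 (-0.25) and Gjb2 (-0.25). Gjb2 and Gjb6 were lowest in Treated libraries 1 and 2, and Prox1 and Sox2 in Treated library 3. Of 5 strial basal cell markers 0 passed in limma and 0 reached 0.05 without adjustment, with a median log2 fold change of -0.27, and the 2 with the highest level, Nr2f2 and Tjp1, had log2 fold changes of 0.17 and -0.48. Other members of that list, Cldn11, Sox8 and Slc2a1, were named after their values were seen. Cldn11, the claudin gene of the basal cell barrier, was at 95.1, 91.0 and 225 TPM in Treated libraries and at 219.5, 262 and 215 TPM in Homozygous libraries. Sox8 was at 49.4, 48.2 and 100.4 TPM in Treated libraries and at 96.7, 95.6 and 65.9 TPM in Homozygous libraries. Treated libraries 1 and 2 were the lowest of the 6 for these genes, which was not the case for the other 3 markers of the list. Tjp1 was lowest in Treated library 3, with 202, 188 and 114 TPM in Treated libraries and 221, 172 and 237 TPM in Homozygous libraries. The glucose transporter gene Slc2a1 was at 114, 100.4 and 177 TPM in Treated libraries and at 103, 145 and 91.8 TPM in Homozygous libraries, and Nr2f2 was at 211, 209 and 264 TPM in Treated libraries and at 214, 197 and 219 TPM in Homozygous libraries. Of 8 tested hair cell markers 0 passed in limma and 5 reached 0.05 without adjustment, as did 26.7% of all tested genes. Log2 fold changes were 0.49 for Ocm and 1.58 for Otof. Of 6 strial marginal cell markers 0 passed in limma and 0 reached 0.05 without adjustment. Their median log2 fold change was 0.67 against 0.20 over all tested genes, with 5 above 0 and 1 below. The 1 below was the ion transporter gene Slc12a2 (-0.51), and Lrp2 had 0.84.

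**Figure D4:**
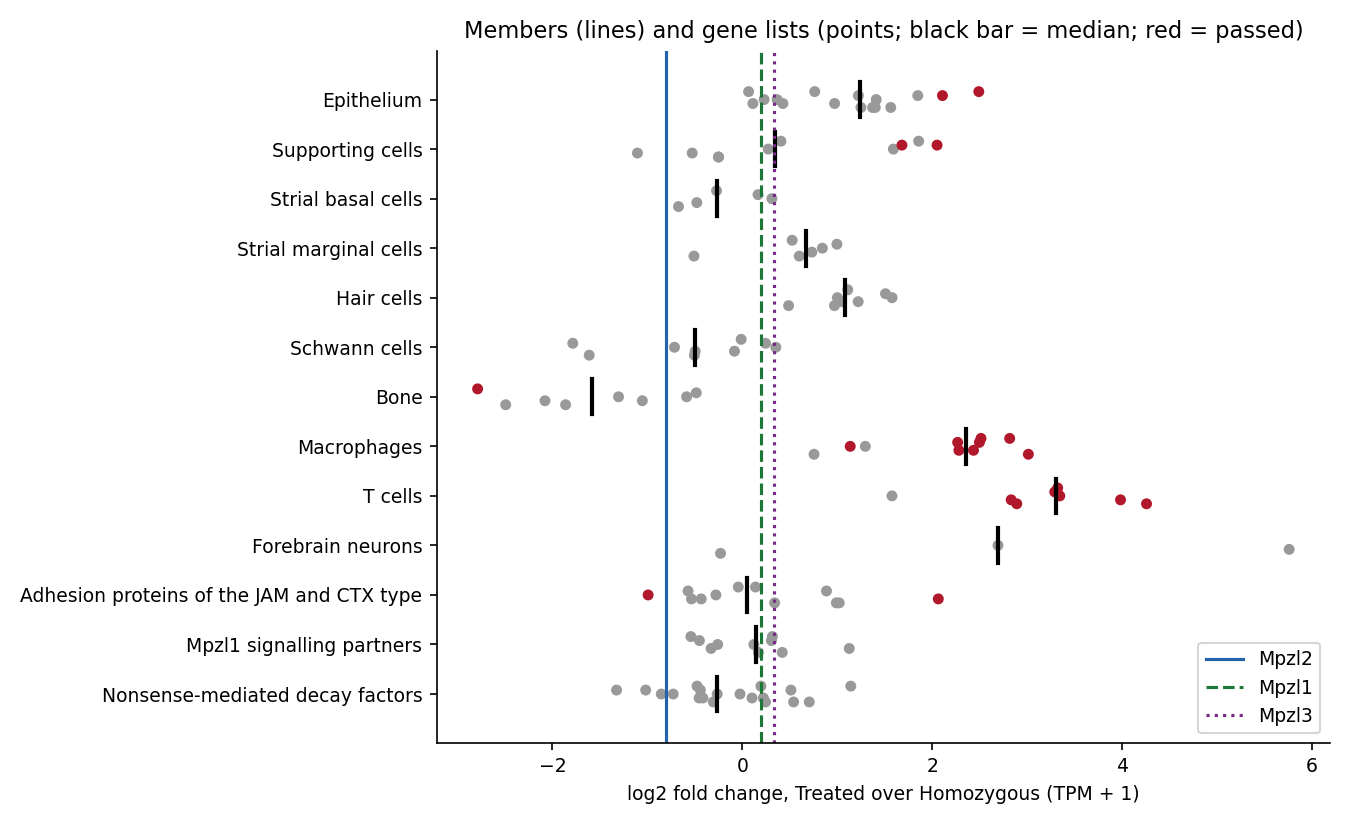
Log2 fold change, Treated over Homozygous, of the tested genes of each list (points, red where the limma adjusted p was 0.05 or less), with a black bar at the median of the list and vertical lines for the 3 members. The Mpzl2 line at -0.80 lies left of all 16 epithelial markers, whose median is 1.24. Among these, Rab25, Esrp2 and Grhl2 were lowest in Treated libraries 1 and 2, as Mpzl2 was.

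Markers outside the epithelium went in both directions in these libraries. Of 8 bone markers 1 fell and 0 rose, and the 1 was Ibsp, an osteoblast gene (log2 fold change -2.79). All 8 had a negative log2 fold change, with a median of -1.58 against 0.20 over all tested genes. Without adjustment 4 of them reached 0.05. Of 9 Schwann cell markers 0 passed in limma and 2 reached 0.05 without adjustment. The myelin genes Mbp and Pmp22 had log2 fold changes of -0.71 and -0.50. Over all tested genes 3.44% were called higher, 0.965% were called lower and 26.7% reached 0.05 without adjustment. Libraries of the groups did not overlap in 42.7% of all tested genes (14.8% lower). Of 10 macrophage markers 8 rose and 0 fell, among them the complement genes C1qc (log2 fold change 3.01) and C1qa (2.50), which did not pass in 1 and 2 of 6 leave-one-out fits. Ibsp did not pass in 2. Of 3 tested forebrain neuron markers 0 passed in limma and 1 reached 0.05 without adjustment, with Camk2a at 745, 722 and 8.13 TPM in Treated libraries and at 0.471, 0.503 and 0.554 TPM in Homozygous libraries, and Nrgn at 114, 110.4 and 2.57 TPM against 2.99, 2.71 and 1.02 TPM.

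On the other side of Mpzl2 from Mpzl3 lie Cd3e, Cd3d and Cd3g, chains of the T cell receptor complex. Cd3e rose to 24.4, 23.7 and 44.5 TPM in Treated libraries, against 2.71, 0.48 and 0 TPM in Homozygous libraries (log2 fold change 4.26, limma adjusted p = 0.0244). Cd3g rose to 8.33, 8.36 and 8.05 TPM in Treated libraries, against 0.0318, 0.377 and 0.512 TPM in Homozygous libraries (log2 fold change 2.83, limma adjusted p = 0.021). Cd3d was listed at 0 in 5 libraries and at 3.77 TPM in Treated library 3 and was not tested. T cell markers from elsewhere in the genome were higher with them. Of 8 tested markers, Cd3e and Cd3g among them, 7 rose and 0 fell, where 3.44% of all tested genes were called higher. Log2 fold changes were 3.99 for Trbc2 and 3.32 for Cd8a. The summed level of all 9 listed markers, with Cd3d, was 110.3, 98.2 and 158 TPM in Treated libraries and 4.41 to 7.35 TPM in Homozygous libraries. Cd3g and Cd8a did not pass in 3 of 6 leave-one-out fits and Cd3e and Trbc2 in 2.

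Of the other neighbours within 100 kb none passed. Like Mpzl2, Jaml was lowest in Treated libraries 1 and 2, with 5.51, 5.32 and 21.6 TPM in Treated libraries and 19.8, 30.5 and 7.78 TPM in Homozygous libraries (log2 fold change -0.57, limma adjusted p = 0.64). Gm10684 was at 2.49, 2.42 and 1.06 TPM in Treated libraries and 6.21, 3.59 and 4.91 TPM in Homozygous libraries (log2 fold change -1.12, limma adjusted p = 0.165). Ube4a, a ubiquitin ligase gene, had a log2 fold change of -0.51 with no overlap between groups (limma adjusted p = 0.14). The sodium channel subunit genes Scn2b and Scn4b had log2 fold changes of 1.10 and -0.61, and Tmprss4 stayed under 1 TPM in every library and was not tested. Of the 24 tested genes among the 30 nearest in order, 4 were called, all higher: Bcl9l, Cd3g, Cd3e and Il10ra. Over all tested genes 3.44% were called higher and 0.965% lower. Bcl9l and Il10ra were named after their values were seen.

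Genes related to the members by type or function were described by their lists. Of 12 tested adhesion proteins of the JAM and CTX type 1 rose and 1 fell, where 3.44% of all tested genes were called higher and 0.965% lower. Vsig10l rose to 15.7, 18.4 and 16.4 TPM in Treated libraries, against 3.42, 3.32 and 2.98 TPM in Homozygous libraries (log2 fold change 2.07, limma adjusted p = 0.0301). Igsf11, an adhesion gene, fell to 29.3, 29.4 and 25.4 TPM in Treated libraries, against 54.2, 59.3 and 52.7 TPM in Homozygous libraries (log2 fold change -0.99, limma adjusted p = 0.045). Both had steady values within each group, and both failed to pass in 3 of 6 leave-one-out fits. Of 10 partners of MPZL1 signalling 0 passed in limma and 1 reached 0.05 without adjustment, with -0.33 for the cortactin gene Cttn and -0.26 for the adaptor gene Gab1. Of 19 factors of nonsense-mediated decay 0 passed in limma and 7 reached 0.05 without adjustment, where 26.7% of all tested genes did so. Their median log2 fold change was -0.26, with 8 above 0 and 11 below. Values ran from -1.325 for Magoh to 1.143 for Dhx34, both named after their values were seen. The 2 with the highest level, Rnps1 and Smg5, had 0.22 and 0.24.

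The patterns closest to each member over the 6 libraries of the second table came from genes of varied function. Treated libraries 1 and 2, nearly one and the same, entered here as separate libraries and were not merged. Those closest to Mpzl2 were Ethe1, Gcnt1, A730020M07Rik, Ndufs5 and Prdx4, with root mean square differences of 0.0622 for Ethe1 to 0.12 for Prdx4 among 16903 genes. Ethe1, a mitochondrial sulfur dioxygenase gene, was at 1.39, 1.36 and 4.93 TPM in Treated libraries and at 5.01, 7.10 and 4.05 TPM in Homozygous libraries. Gcnt1, a glycosyltransferase gene, was at 4.56, 4.29 and 15.1 TPM in Treated libraries and at 15, 19.6 and 10.9 TPM in Homozygous libraries. Both were low in Treated libraries 1 and 2 and near the Homozygous level in Treated library 3. Closest to Mpzl1 were Nr2f2, Lats2 and Ints4 (0.0359 to 0.0474), and closest to Mpzl3 were F2r, Sars2 and Fads6 (0.0426 to 0.0636).

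**Figure D5:**
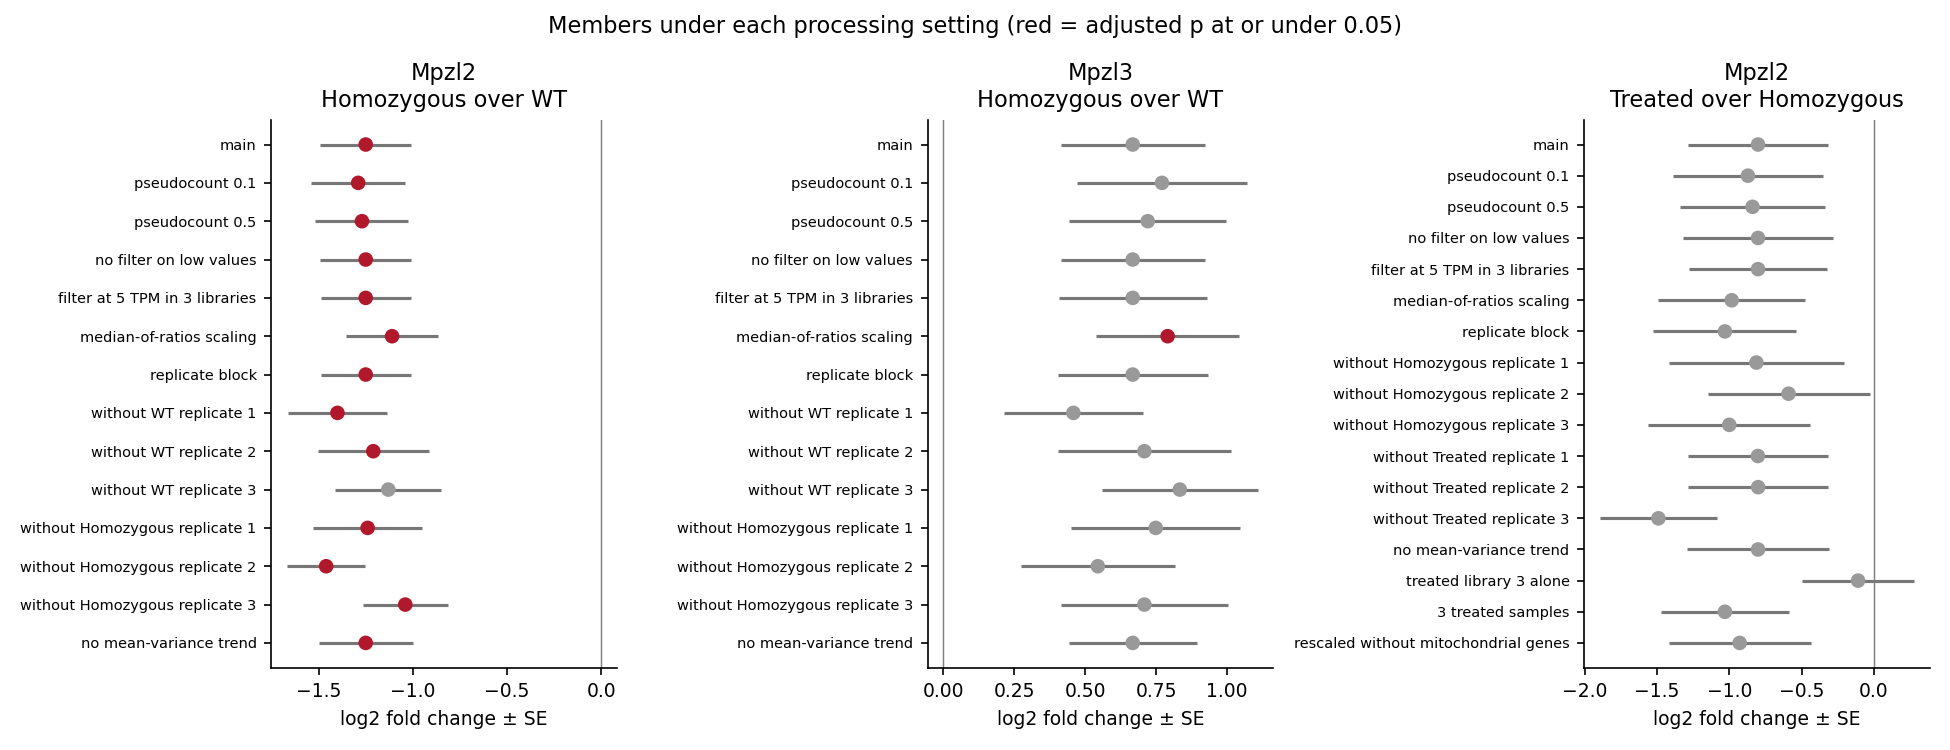
Log2 fold change with its standard error (bars) for Mpzl2 and Mpzl3, Homozygous over WT, and for Mpzl2, Treated over Homozygous, under each processing setting, red where the limma adjusted p was 0.05 or less. Mpzl2 in Homozygous over WT stays between -1.46 and -1.04, and in Treated over Homozygous it lies between -1.49 without Treated library 3 and -0.11 with that library alone.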

How the data were processed

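The deposited values were TPM in 2 tables made by the authors. Per the submitters' processing notes, kallisto 0.51.0 and DESeq, with no version given, were used with genome build GRCm39; no source used here says how rows of the first table were chosen. TPM keeps no depth, so no counting intervals are given. Libraries were prepared with a stranded total RNA kit, per the labels' protocols. Values of repeated symbols were summed. Genes at 1 TPM or more in at least 3 libraries were fitted with limma 3.58.1 in R 4.3.3 on log2(TPM + 1), with a mean-variance trend, no replicate block, two-sided tests, Benjamini-Hochberg adjustment over all tested genes of a table and a threshold of 0.05; such fold changes understate changes of low genes. The tables were tested separately. Gene lists and members were chosen with earlier results of these data known. Besides the members, the genes named were protein-coding genes within 100 kb, up to 2 higher and 2 lower genes of each list by p (otherwise the 2 with the highest mean), and the genes closest in pattern. Some genes of the lists are not reported here. Neighbours and gene order came from RefSeq on GRCm38, another build, so no coordinates are given. The scripts were tested on simulated data. Alternatives were other pseudocounts, filters and scalings, a replicate block, Treated libraries as 3 samples, and leaving out each library.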

Additional observations from a re-analysis of the deposited data

How the results depend on the processing

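Mpzl2 in Homozygous over WT kept its direction in all 13 alternatives and its call in 12, with log2 fold changes of -1.46 to -1.04 when 1 library was left out; the call was lost without WT replicate 3 (-1.13). Mpzl3 in Homozygous over WT had 0.458 to 0.833 with 1 library left out and passed only with median-of-ratios scaling (0.79), which shifted the median of all genes from -0.363 to -0.221. In Treated over Homozygous no member passed in any alternative. Mpzl1 had 0.00447 to 0.222 with 1 library left out and changed sign with median-of-ratios scaling (-0.00794). Mpzl3 had -0.194 to 0.461, below 0 without Treated replicate 3. Mpzl2 had -1.49 to -0.59. The differences of the log2 ratios kept their sign in every alternative run.

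The count of genes passing in Homozygous against WT was 692, with 103 to 611 when 1 library was left out. In Treated against Homozygous it was 754, with 63 to 2984 when 1 library was left out, 134 with no filter, 479 with no mean-variance trend, 222 with Treated library 3 alone and 3563 with 3 Treated samples. The replicate numbers did not pair the libraries, with correlations of same-numbered deviations of -0.14 to 0.0493 in the first table and -0.146 to 0.0304 in the second; with the replicate block the count was 343 in the first table, Mpzl2 had -1.25, and Jaml and Gm10684 (adjusted p = 0.0522 each), Sox8 (0.0522), Clmp (0.064) and Fyn (0.0645) were not called. In the second table the replicate block needs the Treated libraries as 3 samples, which changes 2 choices: the count was 1485 with the block and 3563 without it, and Mpzl2 had -1.03 in both. Median-of-ratios scaling moved the share of higher calls from 34.8% to 69.0% in the first table and from 78.1% to 62.1% in the second.

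Of other genes named in Treated over Homozygous, none of which passed there, signs changed with Treated library 3 alone for Jaml (0.338), Sox8 (0.241), Gcnt1 (0.0282), A730020M07Rik (0.0882), Slc12a2 (0.0647) and Cttn (0.438). They changed with median-of-ratios scaling for Nr2f2 (-0.0367) and Ints4 (-0.0458). With 1 library left out, values crossed 0 for Nr2f2 (-2.41e-06 to 0.198), F2r (-0.183 to 0.403), Sars2 (-0.14 to 0.571), Fads6 (-0.221 to 0.527) and Gab1 (-0.371 to 0.00165), in each without Treated replicate 3. Where 1 Treated sample is left, it is assumed to vary like the Homozygous ones. Where a value changed, the cause was not tested. The unknown depth limits what can be said of genes near 1 TPM.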
